A study of Homo sapiens with 6 samples.

Results

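In Caki-1 kidney cancer cells, 13 of the 60708 genes in the deposited count table were close to silent in control cells and had reads in every VHL-knockout sample. They were chosen by their measured counts, as genes with at most 3 counts in each of the 3 VC samples and at least 20 counts in each of the 3 VHL-KO samples. CA9 and symbols of several large families, such as collagens, integrins, keratins, claudins and solute carriers, were left out beforehand, which removed 2 of the 15 genes that met the limits. The 13 were NRN1, FAM20A, HCG4, BICDL2, TMEM74B, ZNF385D, YPEL4, SPINK1, AKR1B15, CFAP90 (listed as C5orf49), ZSWIM5, LINC01252 and the noncoding gene ENSG00000230432. Because the counts of VC and VHL-KO cells made the choice, the difference between the groups in these 13 genes is a description and was not tested.

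Caki-1 is an established human clear cell renal carcinoma line that carries an intact VHL gene. VC cells received the Lenti-CRISPR vector alone, and VHL-KO cells received lentivirus encoding a guide RNA against VHL together with Cas9. Both were made from the same line, infected cells were selected with puromycin, and the knockout cells are described as clonal lines. RNA of 3 samples per group was sequenced, with 31789923, 28463579 and 34881739 gene counts for VC, in replicate order, and 29139722, 22805385 and 22628246 for VHL-KO. Whether the replicates are separate cultures or separate clones is not stated, so p-values measure only the spread between these samples, which may be technical. An effect of VHL loss and a trait of the cells from which a clone grew cannot be told apart in this design.

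VHL is the substrate-binding subunit of a ubiquitin ligase that recognises hydroxylated HIF-alpha proteins and sends them to the proteasome. Without it, HIF-alpha accumulates in the presence of oxygen, pairs with ARNT and binds short DNA motifs with the core ACGTG or GCGTG, which raises transcription of genes for glycolysis, angiogenesis and pH control. Loss of VHL is the founding event of most clear cell renal carcinomas. CA9, which encodes a carbonic anhydrase of the cell surface, is nearly silent in normal kidney and is a common marker of HIF activity in these tumours.

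The edited gene itself had 1454, 1124 and 1522 counts in VC cells and 929, 657 and 650 counts in VHL-KO cells. Its log2 fold change was -0.33 with a standard error of 0.11 (adjusted p = 0.0109, edgeR's quasi-likelihood test, Benjamini-Hochberg adjustment), and 3 of 13 alternative settings did not call it, with adjusted p-values from 0.000293 to 0.0905 over the 13. Reads counted over a whole gene do not show whether its coding sequence was cut, so this value says little about the editing. Per the paper, loss of VHL protein in the knockout clones was checked by immunoblot. CA9, which met both limits and was left out by name, had 0, 0 and 2 counts in VC cells and 288, 247 and 233 counts in VHL-KO cells. The other gene left out, ITGA6-AS1, had 1, 0 and 2 counts in VC cells and 52, 42 and 36 counts in VHL-KO cells.

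Across all genes, edgeR's test called 28.5% of 17401 tested genes higher and 31.2% lower in VHL-KO cells. With library size alone as the scaling, the share of higher genes among the called genes was 35.8%, against 47.7% with TMM factors and 55.0% with upper quartile factors. The median log2 fold change of all tested genes was -0.20 with library size alone, against -0.01 with TMM and 0.10 with upper quartile factors. All 13 members passed the filter of at least 10 reads in any sample and were called higher, but the limits of 3 and 20 counts use the same contrast, and nothing is read from that count.

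The reads on the 13 genes together numbered 15, 12 and 11 in the VC samples and 869, 735 and 604 in the VHL-KO samples. Silence in VC cells was close to complete but not uniform. In 4 genes no read was counted in any VC sample, and in the other 9 the reads summed over the 3 VC samples ranged from 2 to 8. As a floor for a count of 0 this text takes 3 counts, which is 0.0790 CPM in VC replicate 3, the deepest library, and 0.101 CPM in VC replicate 2. The two-sided 95% interval of a count of 0 ends somewhat higher, at 0.0972 and 0.124 CPM in these samples. PCR reads are not independent molecules, so this floor and the intervals cover counting error only.

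The level reached in VHL-KO cells was low for most members. Their mean in VHL-KO cells ranged from 1.15 CPM for LINC01252 to 8.13 CPM for NRN1, with a median of 1.76 CPM over the 13 (CPM, TMM-scaled). Divided by the length of the merged exons, the members lay between percentile 10.6 and percentile 82.8 of the tested genes, with a median percentile of 25.8. The word "on" therefore stands here for a low to moderate RNA level. In bulk RNA, fewer cells with a transcript and less transcript per cell cannot be told apart, so a level near 1 CPM may be a low level in all cells or a higher level in few of them.

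**Figure D1:**
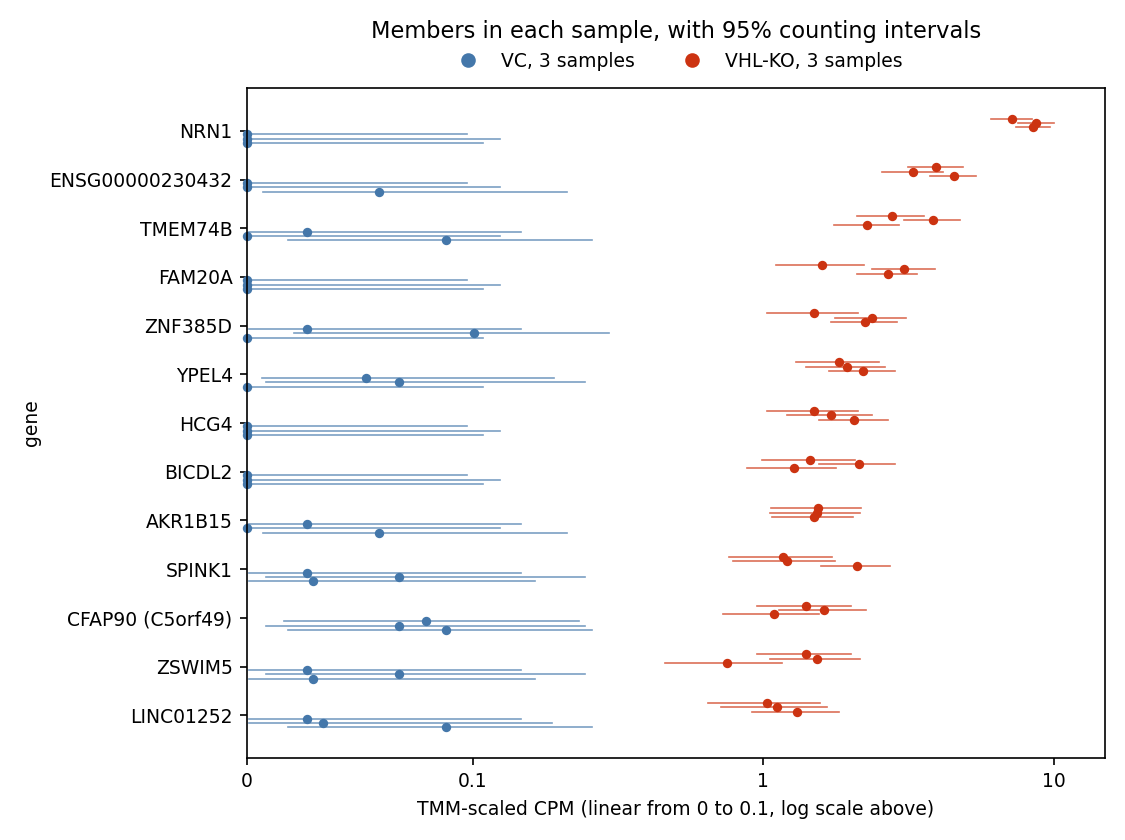
Level of each of the 13 members in the 3 VC and 3 VHL-KO samples, as TMM-scaled CPM on an axis that is linear from 0 to 0.1 and logarithmic above; points are samples and lines are 95% exact Poisson intervals of the count. VC samples lie at or near 0 and VHL-KO samples lie around 1 to 9 CPM, with NRN1 the highest at 8.13 CPM on average.

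In 4 members, NRN1, FAM20A, HCG4 and BICDL2, all VC samples were at 0, and for them only a lower bound of the fold can be given, computed against a floor of 3 counts over the whole VC group. NRN1 encodes neuritin, a small protein tethered to the cell surface by a lipid anchor that promotes the outgrowth of neurites and is best known from neurons. It had 227, 188 and 153 counts in the VHL-KO samples, or 8.13 ± 0.83 CPM (mean ± SD, n = 3). This was at least 277-fold higher than in VC cells, and its lowest VHL-KO sample, at 7.18 CPM, stood above the highest of any other member, 4.53 CPM for ENSG00000230432. NRN1 (ENSG00000124785.9) lies on the minus strand at chr6:5997999-6007605 of GRCh38, and none of its exons overlaps another annotated gene, so its reads have a single source in the annotation.

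FAM20A encodes a secreted pseudokinase that binds and activates FAM20C, the kinase that phosphorylates proteins in the secretory pathway, and its loss causes a syndrome of defective enamel and kidney calcification. It had 72, 66 and 34 counts in the VHL-KO samples, or 2.45 ± 0.76 CPM (mean ± SD, n = 3), which was at least 83.9-fold higher than the floor in VC cells. VHL-KO replicate 3, at 1.59 CPM with a 95% counting interval of 1.10 to 2.23, lay below the interval of replicate 2, which was 2.37 to 3.89. FAM20A (ENSG00000108950.12) lies on the minus strand at chr17:68535113-68601367, and no annotated exon of another gene overlaps its exons.

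BICDL2 encodes a coiled-coil adaptor of the Bicaudal D type, a class of proteins that link cargo to the dynein motor. It had 34, 46 and 31 counts in the VHL-KO samples, or 1.62 ± 0.45 CPM (mean ± SD, n = 3), at least 54.1-fold above the floor. The 3 counting intervals overlap one another, at 0.881 to 1.78, 1.56 to 2.84 and 0.988 to 2.06 CPM in replicate order. Overlap does not show that the samples are alike, and whether they differ was not tested. BICDL2 (ENSG00000162069.16) lies on the minus strand at chr16:3027682-3036944, and 10.0% of its exonic bases overlap exons of genes on the opposite strand, THOC6 among them.

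HCG4 is an unprocessed pseudogene of the HLA class I region, a cluster in which many gene copies resemble each other. It had 55, 37 and 32 counts in the VHL-KO samples, or 1.76 ± 0.28 CPM (mean ± SD, n = 3), at least 60.5-fold above the floor. HCG4 (ENSG00000176998.4) lies on the minus strand at chr6:29791753-29792750, and 73.7% of its exonic bases overlap exons on the opposite strand, including those of HLA-V. Strandedness of the counting is not stated, so reads of HCG4 and of the overlapping genes cannot be told apart, and the near copies in this region make its count uncertain in addition.

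The other 9 members had some reads in VC cells, and their folds are ratios of the summed counts with a 95% counting interval. The noncoding gene ENSG00000230432 had 2, 0 and 0 counts in VC cells and 121, 71 and 84 counts in VHL-KO cells. The ratio was 202, with an interval of 55.4 to 1675 that is wide because only 2 reads stand for the VC group. It is a short gene on the plus strand at chr2:219299002-219304130 with 0.311 kb of exon, and at 12.6 CPM per kb it had the highest level per length of all members. Of its exonic bases, 69.5% overlap PTPRN, a gene on the opposite strand that encodes a membrane protein of dense-core secretory vesicles, and reads of the pair cannot be told apart.

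TMEM74B encodes a membrane protein related to TMEM74, a protein linked to autophagy. It had 3, 0 and 1 counts in VC cells and 61, 83 and 59 counts in VHL-KO cells, a ratio of 74.2 with an interval of 28.6 to 275.1. VHL-KO replicate 2 was the highest at 3.85 CPM, and its counting interval of 3.06 to 4.77 lay above that of replicate 1, which ended at 2.93. The gene (ENSG00000125895.6, minus strand, chr20:1180561-1185415) lies within PSMF1 of the plus strand, and exons of PSMF1 cover 27.0% of its exonic bases. PSMF1, a proteasome inhibitor, had 3605, 3628 and 3703 VC counts and 2885, 2254 and 2138 VHL-KO counts, far more reads than its partner in both groups.

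The members include both a zinc finger gene and a gene of the Yippee-like family, small conserved proteins that bind zinc. ZNF385D, a zinc finger gene that spans 961104 bases at chr3:21412218-22373321 on the minus strand (ENSG00000151789.12), had 0, 3 and 1 counts in VC cells and 60, 51 and 32 counts in VHL-KO cells. The ratio was 52.3 (interval 20 to 194.5), and per kb of exon it was the lowest of the members at 0.134 CPM per kb. YPEL4 (ENSG00000166793.13, minus strand, chr11:57645087-57649944) had 0, 2 and 2 counts in VC cells and 59, 42 and 39 counts in VHL-KO cells. Its ratio was 51.2 (interval 19.6 to 190.5), and its VHL-KO samples were close together at 1.99 ± 0.19 CPM (mean ± SD, n = 3). Exons of the opposite strand, from CLP1 and a noncoding gene, cover 7.96% of its exonic bases.

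SPINK1 encodes a secreted inhibitor of trypsin, made in large amounts by the pancreas to stop the early activation of digestive enzymes and also found in several tumours. It had 1, 2 and 1 counts in VC cells and 56, 26 and 25 counts in VHL-KO cells, a ratio of 39.1 (interval 14.8 to 146.2). Over the VHL-KO samples the mean was 1.49 ± 0.52 CPM (SD, n = 3), the widest relative spread of all members with a coefficient of variation of 35.2%, and replicate 1 had the highest level at 2.10 CPM (95% counting interval 1.58 to 2.72). The gene (ENSG00000164266.11) lies on the minus strand at chr5:147824572-147831671 with no exon shared with another gene.

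AKR1B15 encodes an aldo-keto reductase that acts on steroids and retinaldehyde, and it arose from a close duplicate of AKR1B10, which lies beside it. It had 2, 0 and 1 counts in VC cells and 40, 33 and 33 counts in VHL-KO cells, a ratio of 51.7 (interval 17.2 to 254.6). The VHL-KO samples were nearly equal at 1.52 ± 0.025 CPM (mean ± SD, n = 3), the smallest spread of the members. Reads were kept only where they mapped to a single location, so reads that AKR1B15 (ENSG00000227471.9, plus strand, chr7:134549110-134579875) may share with a similar copy could be missing or misplaced, which was not tested. AKR1B10 itself went the other way, with 319, 362 and 380 counts in VC cells and 165, 151 and 134 in VHL-KO cells.

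CFAP90, named for the axoneme of cilia and flagella, was the member with the most reads in VC cells, 3, 2 and 3 counts, against 29, 35 and 30 counts in VHL-KO cells. Its ratio of 17.2 (interval 8.37 to 41.0) was the lowest of the 9. CFAP90 (ENSG00000215217.7, minus strand, chr5:7830378-7851151) and MTRR, an enzyme gene that reactivates methionine synthase, start 35 bases apart on opposite strands. MTRR had 1062, 910 and 1366 VC counts and 543, 539 and 455 VHL-KO counts, so the 2 genes of this divergent pair moved in opposite directions.

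ZSWIM5, a gene for a protein with a SWIM-type zinc finger, had 1, 2 and 1 counts in VC cells and 20, 33 and 30 counts in VHL-KO cells, a ratio of 30.4 (interval 11.4 to 114.0). VHL-KO replicate 1 was the lowest at 0.749 CPM and sat exactly on the minimum of 20 counts. The gene (ENSG00000162415.7) lies on the minus strand at chr1:45016399-45306209. LINC01252, a long intergenic noncoding RNA of the plus strand at chr12:11548030-11590369 (ENSG00000247157.7), had 3, 1 and 1 counts in VC cells and 35, 24 and 22 counts in VHL-KO cells. Its ratio was 23.7 (interval 9.75 to 74.9), and at 1.15 ± 0.14 CPM (mean ± SD, n = 3) it had the lowest mean of the 13.

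Per kb of exon, the order of levels in VHL-KO cells differed from the order of the counts. ENSG00000230432 led with 12.6 CPM per kb, followed by NRN1 with 3.56, HCG4 with 1.76, TMEM74B with 1.18 and SPINK1 with 1.10 CPM per kb. TMEM74B and SPINK1 differ by less than their SD over samples, so their order is not fixed. CFAP90 stood at 0.670 CPM per kb, and AKR1B15, YPEL4, FAM20A and BICDL2 lay between 0.344 and 0.455 CPM per kb. LINC01252, ZSWIM5 and ZNF385D were lowest, at 0.258, 0.202 and 0.134 CPM per kb. All but ENSG00000230432 and NRN1 were near or below the middle of the tested genes on this scale, where HCG4 lay at percentile 50.4.

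The spread among VHL-KO samples is a description only, because the rule asked for 20 counts in each of them and so left out genes with a single low or silent VHL-KO sample. The ratio of the highest to the lowest VHL-KO sample had a median of 1.49 over the members, beside 1.39 over 4238 other tested genes, which were not cut by that minimum, with a mean between 27 and 189 counts in VHL-KO cells. The coefficient of variation had a median of 19.7% over the members and 17.3% over those genes. After scaling, replicate 1 was the highest sample for 5 members, replicate 2 for 7 and replicate 3 for 1, while replicate 3 was the lowest for 7. Among the 4238 other genes, replicate 3 was the highest for 33.2% and the lowest for 36.5%.

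The limits of the rule cut through a continuous range of counts. Just inside the upper limit of VC cells stood CFAP90, LINC01252, TMEM74B and ZNF385D, each with 3 counts in at least one VC sample, and just inside the minimum of VHL-KO cells stood ZSWIM5 with 20 and LINC01252 with 22 counts in its lowest sample. Just outside, ZBTB7C had 1, 5 and 4 VC counts and 95, 88 and 88 VHL-KO counts. PPP1R1A had 1, 2 and 5 against 61, 73 and 44, and PPP2R2C had 3, 4 and 1 against 42, 44 and 44 counts. All 3 encode proteins of signalling or transcription, a zinc finger factor, an inhibitor of protein phosphatase 1 and a subunit of protein phosphatase 2A.

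LMNTD2-AS1, an antisense RNA, missed the VC limit with 3, 3 and 6 counts against 47, 60 and 63 counts in VHL-KO cells, and the noncoding gene ENSG00000253633 with 3, 1 and 6 against 44, 47 and 55. Others missed only the VHL-KO minimum by few reads. ADAM28, a membrane metalloprotease gene, had 1, 1 and 3 VC counts and 53, 19 and 19 VHL-KO counts. FLG-AS1 had 2, 2 and 3 against 38, 19 and 25, and HCG4P7, a pseudogene near HCG4, had 3, 2 and 0 against 20, 17 and 17 counts. The noncoding genes ENSG00000287115 and ENSG00000270124 had VHL-KO minimums of 19 and 17 counts.

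Other limits gave other numbers of genes. With at most 0 or 1 count in each VC sample 4 genes passed, with at most 5 counts 21 and with at most 10 counts 56. With at least 10 counts in each VHL-KO sample 35 genes passed, with at least 50 counts 3 and with at least 100 counts 1, which was NRN1. The VC samples weighed unequally, since 22 genes passed without VC replicate 3, the deepest library, against 16 and 17 without VC replicates 1 and 2. The same limits turned around, at least 20 counts in each VC sample and at most 3 in each VHL-KO sample, were met by 19 genes after the same symbols were left out. The limits are on raw counts and the VC libraries were mostly deeper, which makes both turned limits easier to meet. This number and the number of members are therefore not on equal terms. Of the 40934 genes with at most 3 counts in every VC sample, 39094 also had at most 3 in every VHL-KO sample.

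**Figure D2:**
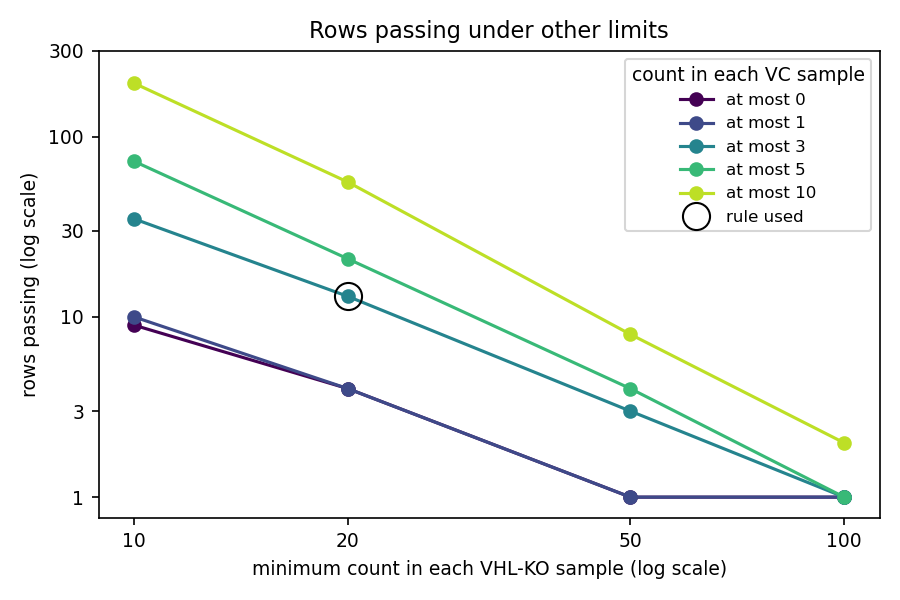
Number of genes that pass when the limit on VC counts (one line per limit) and the minimum in VHL-KO cells (horizontal axis, log scale) are varied, on a log vertical axis, with the same symbols left out. The circle marks the limits used, at which 13 genes passed; 198 passed at the loosest and 1 at the strictest combination.

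By annotation, 10 of the 13 members are protein-coding, 2 are long noncoding RNAs and 1 is a pseudogene. They lie on 11 chromosomes, and the closest pair on one chromosome, NRN1 and HCG4, is 23785 kb apart, so the members do not form a cluster of their own. The GC content of their transcripts ranged from 41.0% for SPINK1 to 63.9% for HCG4, with a median of 50.8% against 48.7% over 17355 tested genes. In 7 of the 13, some exonic bases overlap an exon of a gene on the other strand. The overlap was largest for HCG4, ENSG00000230432 and TMEM74B, at 73.7%, 69.5% and 27.0% of the exonic bases.

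Promoters were compared because the members share a direction and HIF binds a short known motif. RefSeq promoter windows on GRCh38.p14, from 250 bases before to 50 bases after a start, were matched for 8 of the 13 members, with 2 windows for TMEM74B. The letters ACGTG or GCGTG, on either strand, were in 6 of the 9 windows of members (66.7%), from 6 of the 8 members, and in 48.4% of all 35116 windows. ACGTG alone was in 3 of the 9 (33.3%), those of YPEL4, ZNF385D and SPINK1, and in 21.4% of all windows. ACGTG is also part of the longer E-box CACGTG, which no window of a member held and which 7.26% of all windows held. A match of 5 letters is a description and not a binding site, and the difference of these shares from those of all windows was not tested.

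Shown are the matched member with the highest mean level, NRN1, and 3 of the members whose windows hold a match before the start, each 5′ to 3′ on the gene's own minus strand with matches in capitals, up to the first base that is annotated as an exon. The stretches of ZNF385D and ZSWIM5 lie in introns of longer transcripts of the same genes, that of NRN1 lies inside the NRN1 gene and outside its exons, and that of YPEL4 lies outside YPEL4 and in introns of CLP1 and of another gene on the other strand.
NRN1, chr6:6004045-6004275, minus strand, no match: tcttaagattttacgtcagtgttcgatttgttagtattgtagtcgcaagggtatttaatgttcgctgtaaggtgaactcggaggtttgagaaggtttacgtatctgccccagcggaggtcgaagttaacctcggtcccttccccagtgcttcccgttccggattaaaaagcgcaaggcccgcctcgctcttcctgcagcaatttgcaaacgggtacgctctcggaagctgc
YPEL4, chr11:57649945-57650162, minus strand, ACGTG at position -73: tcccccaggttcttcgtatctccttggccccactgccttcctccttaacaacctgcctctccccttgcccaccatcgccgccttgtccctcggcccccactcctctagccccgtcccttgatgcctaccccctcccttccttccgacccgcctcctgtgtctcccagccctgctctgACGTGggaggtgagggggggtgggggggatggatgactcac
ZNF385D, chr3:21751211-21751460, minus strand, ACGTG read on the opposite strand at position -239: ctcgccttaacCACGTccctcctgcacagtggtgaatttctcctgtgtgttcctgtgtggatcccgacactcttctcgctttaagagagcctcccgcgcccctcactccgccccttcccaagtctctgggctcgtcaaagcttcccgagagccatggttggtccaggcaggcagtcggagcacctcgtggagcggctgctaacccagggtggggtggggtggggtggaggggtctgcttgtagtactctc
ZSWIM5, chr1:45206606-45206855, minus strand, GCGTG at position -122: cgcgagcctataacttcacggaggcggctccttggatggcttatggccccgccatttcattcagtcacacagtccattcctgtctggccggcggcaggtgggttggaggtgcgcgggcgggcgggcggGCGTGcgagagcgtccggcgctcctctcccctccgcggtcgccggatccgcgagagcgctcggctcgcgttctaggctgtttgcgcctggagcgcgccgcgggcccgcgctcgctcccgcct

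Positions count from the RefSeq start, with -1 as the base before it and the first base of the match, in reading direction, given. NRN1, with 227, 188 and 153 counts in VHL-KO cells, held no match, while ZSWIM5, with 20, 33 and 30, held 2, the second at position 41. The windows also differed in CpG content, given as the number of CG pairs over the number expected from the C and G content. This ratio was 1.21 for NRN1 and 1.17 for ZSWIM5 but 0.384 for YPEL4 and 0.0549 for SPINK1. The median over the 9 windows of members was 0.573, against 0.579 over all windows. Members with and without CpG-rich starts thus appear side by side among these genes.

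Genes that start near a member were not used by the rule and were tested. Within 100 kb of a member's start, 113 other genes of the table start, and 50 of them were tested. edgeR's test called 22 of the 50 higher (44%) and 12 lower (24%), beside 28.5% and 31.2% over all tested genes. Of the 22, 6 reached the filter of 10 reads only in VHL-KO cells, as RAD21L1 among the 12 did only in VC cells, and under a filter of 10 reads in all samples 16 were called higher and 10 lower. PTPRN, HLA-V and THOC6 among the 22 and CLP1 among the 12 also overlap members, so their reads may not be separate from those of the members. With library size alone 19 were called higher and 17 lower, beside 3764 and 6737 of all 17401 tested genes under that scaling. The neighbourhood of HCG4 gave 6 of the 22, and without it 16 of 44 neighbours (36.4%) were called higher and 12 lower. No neighbour of NRN1 or of LINC01252 had enough reads for the test, so both stood alone in their surroundings among genes that pass the filter.

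Around HCG4 all 6 tested neighbours were called higher, but 4 of them had fewer than 10 reads in each VC sample and entered the test only through their VHL-KO reads. HLA-F, which starts 70.0 kb from HCG4 and encodes a nonclassical class I molecule, had 171, 167 and 142 VC counts and 1650, 1528 and 1334 VHL-KO counts. Its log2 fold change was 3.77 with a standard error of 0.14 (adjusted p = 1.11e-16, edgeR's quasi-likelihood test, Benjamini-Hochberg adjustment), higher in 3 of 3 samples. The pseudogene HLA-H, 95 kb away, had 195, 187 and 196 VC counts and 988, 899 and 737 VHL-KO counts, a log2 fold change of 2.72 with a standard error of 0.14 (adjusted p = 2.27e-14, same edgeR test and adjustment). HLA-V, HLA-F-AS1 and HCG4P7 had at most 3 counts in each VC sample, as HCG4 did, and their summed counts were 43.9, 24.1 and 15.8 times as high in VHL-KO cells, with intervals of 11.6 to 370.7, 8.99 to 91.2 and 6.37 to 50.6. The other one, HCG4P11, was 5.85 times as high (interval 2.88 to 13.1). Class I genes share long stretches of sequence, and how far reads of one copy were counted on another was not tested.

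**Figure D3:**
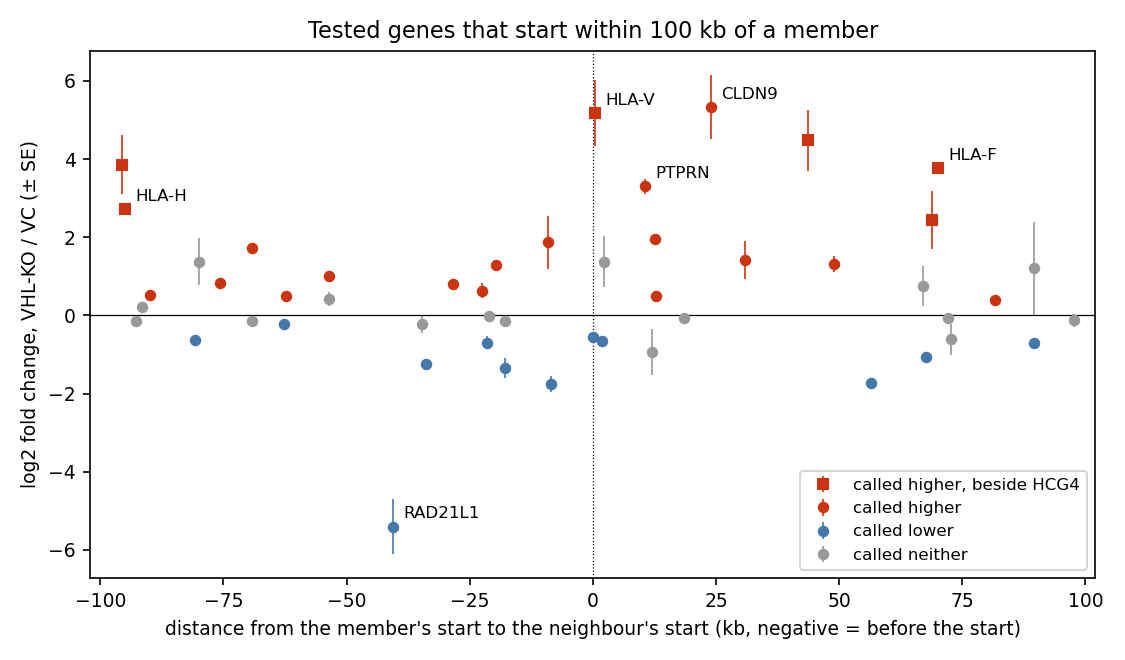
Log2 fold change (VHL-KO over VC, with its standard error) of the 50 tested genes that start within 100 kb of a member, against the distance between the starts in kb, negative before the member's start in its direction of transcription. Red marks the 22 called higher, blue the 12 called lower and grey those called neither by edgeR; squares are the 6 neighbours of HCG4, all higher.

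The partner of ENSG00000230432 on the opposite strand, PTPRN, had 45, 31 and 37 VC counts and 285, 258 and 221 VHL-KO counts. Its log2 fold change was 3.30 with a standard error of 0.20 (adjusted p = 9.71e-13, edgeR's quasi-likelihood test, Benjamini-Hochberg adjustment), so both genes of this overlapping pair had more reads in VHL-KO cells. Of the 9 tested neighbours of ENSG00000230432, 4 were called higher and none lower. Near BICDL2, 8 of 13 tested neighbours were called higher and 2 lower, but 2 of the 8, CLDN9 among them, reached 10 reads only in VHL-KO cells. CLDN9, a tight junction gene that starts 24 kb from BICDL2, had 1, 0 and 1 VC counts and 41, 17 and 11 VHL-KO counts, and its summed counts were 50.5 times as high (interval 13.5 to 425.0).

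Other members stood beside genes that fell. RAD21L1, a meiotic cohesin gene that starts at -40.6 kb from TMEM74B, had 37, 40 and 67 VC counts and 0, 0 and 2 VHL-KO counts, the reverse of its neighbour. Its summed counts were 49.2 times as high in VC cells, with an interval of 13.4 to 410.3. Genes whose exons overlap a member differed in direction, since CLP1, beside YPEL4, was lower (log2 fold change -0.65, standard error 0.13, adjusted p = 9.54e-05, edgeR's quasi-likelihood test, Benjamini-Hochberg adjustment) and PSMF1, beside TMEM74B, was called neither (log2 fold change -0.06, standard error 0.10). THOC6, beside BICDL2, was called higher with a log2 fold change of 0.49 (standard error 0.12). MTRR, the divergent partner of CFAP90, was lower by the same edgeR test, at log2 fold change -0.55 (standard error 0.12, adjusted p = 0.000335). The single tested neighbours of FAM20A and ZNF385D were also called lower, and that of SPINK1 was called higher.

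Several members belong to families, and the values of some relatives are given as a description. Relatives were picked by family name after the members and the relatives' own values were known. How far a change was shared within families therefore cannot be read from their counts. The list held 28 genes for 9 members, of which 19 were tested. It need not hold every gene of a family, and for ZSWIM5 it held only ZSWIM4, ZSWIM6 and ZSWIM8. edgeR's test called 13 of the 19 higher and 6 lower, with a median log2 fold change of 0.61 against -0.01 over all tested genes, of which 28.5% were higher and 31.2% lower. Under a filter of 10 reads in all samples 10 relatives were called higher and 4 lower. With library size alone as the scaling 11 were called higher, and with upper quartile factors 5 were called lower.

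The YPEL family had the most tested relatives. YPEL1, YPEL2, YPEL3 and YPEL5, the other 4 genes of the family, were all called higher in VHL-KO cells, YPEL1 having reached the filter through its VHL-KO reads alone. YPEL3, a growth-restraining member of the family, had 366, 353 and 278 VC counts and 1561, 1204 and 1121 VHL-KO counts. Its log2 fold change was 2.48 with a standard error of 0.14 (adjusted p = 2.94e-13, edgeR's quasi-likelihood test, Benjamini-Hochberg adjustment). YPEL5 and YPEL2 had log2 fold changes of 1.09 (standard error 0.12) and 0.91 (standard error 0.15), and YPEL1 went from 4, 2 and 7 to 15, 17 and 10 counts. These calls held under each scaling tried, and YPEL1 was not tested under the stricter filter of 10 reads in all samples. YPEL4 had the fewest reads of the family in VC cells, which follows largely from the VC limit of the rule.

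Protease inhibitors of the SPINK family were mostly without reads. Of 9 relatives of SPINK1, 5 had no count in any sample and 2 were tested, SPINK5 and SPINK13, both called higher, SPINK5 having passed the filter through its VHL-KO reads alone. SPINK5, an inhibitor of skin proteases, had 2, 2 and 2 VC counts and 30, 10 and 25 VHL-KO counts, 15.8 times as high over the summed counts (interval 6.90 to 44.8). SPINK13 had 9, 8 and 11 against 25, 20 and 28 counts, a log2 fold change of 1.93 with a standard error of 0.46.

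In other families, relatives parted. ZNF385A rose (log2 fold change 1.60, standard error 0.12, adjusted p = 4.91e-11, edgeR's quasi-likelihood test, Benjamini-Hochberg adjustment), while ZNF385B had 13, 19 and 27 VC counts and 0, 3 and 1 VHL-KO counts. TMEM74, the relative of TMEM74B, went from 47, 39 and 42 to 5, 6 and 12 counts, opposite to the member. FAM20C, the kinase that FAM20A activates, had a log2 fold change of 0.41 (standard error 0.11) and FAM20B, a kinase of proteoglycan synthesis, one of -0.35 (standard error 0.11). The call of FAM20C was lost with library size alone and that of FAM20B with upper quartile factors. AKR1B1, at 3187 CPM in VC and 4583 CPM in VHL-KO cells, was higher, and AKR1B10 was lower with a log2 fold change of -0.70 (standard error 0.16). Of the ZSWIM relatives, ZSWIM4 and ZSWIM8 were called higher and ZSWIM6 lower, and of the BICD relatives BICDL1 and BICD1 were called higher and BICD2 lower. The call of BICD1 was lost with library size alone and without VHL-KO replicate 2, and that of BICDL1 without VC replicate 2 or VHL-KO replicate 2.

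**Figure D4:**
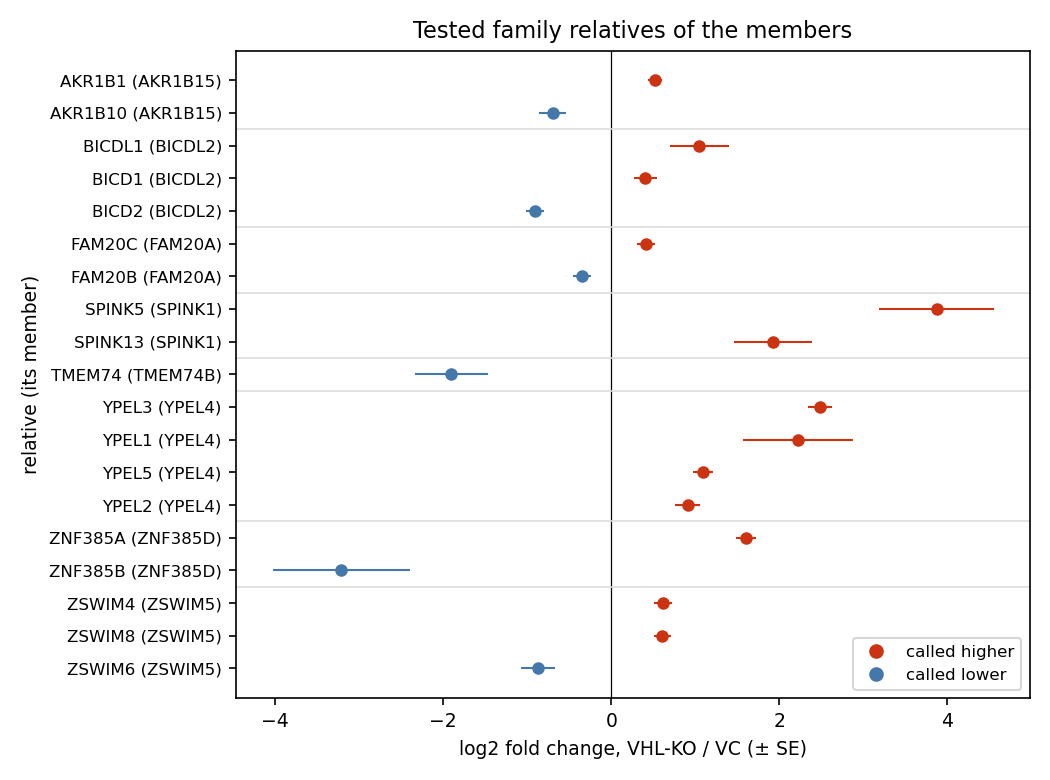
Log2 fold change (VHL-KO over VC, with its standard error) of the 19 tested relatives of members, grouped by the member named in brackets. Red marks the 13 called higher and blue the 6 called lower by edgeR; the 4 YPEL relatives lie between 0.91 and 2.48, and other families hold genes of both signs except SPINK1 and TMEM74B.

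CA9 is the one gene of a list of 54 widely described HIF targets that met both limits, and it was left out by name, so that none of the 13 members is in the list follows in part from the rule. Of the 53 tested genes of that list, 45 were called higher and 6 lower, beside 28.5% and 31.2% of all tested genes, with a median log2 fold change of 1.53 against -0.01 over all tested genes. The number called lower was 3 with upper quartile factors and 3 without VHL-KO replicate 3. NDRG1, a stress-responsive gene of the list, went from 413, 331 and 445 to 19464, 16703 and 16656 counts. PPFIA4, a liprin gene, went from 27, 35 and 17 to 1001, 927 and 888 counts, and so did not meet the VC limit of the rule.

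Silent genes are often held by DNA methylation and repressive chromatin, and none of the members belongs to the list for that machinery either. Of its 34 tested genes, 22 were called lower and 4 higher, beside 31.2% and 28.5% of all tested genes, with a median log2 fold change of -0.54 against -0.01, and with library size alone 26 were lower and 2 higher. Called higher were 6 with upper quartile factors, and also 6 in a separate alternative that left out VC replicate 2. UHRF1, which guides maintenance methylation, had 4026, 4303 and 5058 VC counts and 404, 413 and 508 VHL-KO counts. DNMT1, the maintenance methyltransferase, had 7339, 7217 and 8261 against 1213, 1084 and 1106 counts, and HELLS, a chromatin remodeler, 1131, 849 and 1358 against 199, 130 and 139. Whether these levels bear on the 13 members was not tested.

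The lists of cancer-testis and germline genes, imprinted genes and Y-linked genes did not contain a member. Their few tested genes stand beside the 28.5% higher and 31.2% lower of all tested genes. Of 94 cancer-testis and germline genes in the table, 77 had no count in any sample, and of the 6 tested 1 was higher and 1, TDRD9, was lower, with 64, 65 and 74 counts against 6, 6 and 0. Under a filter of 10 reads in all samples neither call remained, since TDRD9 reached 10 reads only in VC cells. Of 11 tested imprinted genes 5 were higher and 2 lower, but 3 were higher with library size alone, without VC replicate 1 or without VHL-KO replicate 2. PEG10 fell from 9084, 7681 and 12897 to 1671, 1361 and 1429 counts, PLAGL1 was lower with a log2 fold change of -1.27 and MEST higher with one of 0.91. Of 11 Y-linked genes in the table, 10 had no count. The 1 tested, PRKY, had 18, 9 and 32 counts in VC cells and 42, 29 and 21 in VHL-KO cells and was called higher. That call was lost when VC replicate 2 or VHL-KO replicate 1 was left out and under a filter of 10 reads in all samples. Whether the reads counted on PRKY come from a Y chromosome was not tested.

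Markers of other cell types were compared because a member such as NRN1 or SPINK1 is best known from another tissue. Of 14 tested kidney epithelium markers 8 were called higher and 2 lower, beside 28.5% and 31.2% of all tested genes. Their summed level was 8250, 9214 and 7988 CPM in VC and 9132, 8564 and 8922 CPM in VHL-KO cells. Most of it was VIM, a gene not specific to epithelium, with means of 6433 CPM in VC and 6138 CPM in VHL-KO cells. VIM was called neither, and the sum says little about the other markers. Of the 8 calls, that of KRT19 was kept in only 4 of 13 alternatives, and those of KRT18 and ANPEP were lost with library size alone. CDH16 had the largest change of this list, from 6.76 to 72.2 CPM, and PAX8 rose from 428 to 614 CPM, while LHX1 fell from 55.3 to 17.4 CPM, EPCAM fell from 1.33 to 0.491 CPM, and LRP2 and PAX2 had no count. Of the 12 neuronal markers 6 were tested and 1, GAP43, was called higher. Their summed level was 25.7, 24.4 and 32.6 CPM in VC and 30.2, 29.8 and 31.2 CPM in VHL-KO cells, SYT1 was the most abundant and STMN2 had no count. Of the 10 endothelial markers 2 were tested and both were higher, with a summed level of 23.4, 25.8 and 21.7 CPM in VC and 51.5, 47.5 and 48.8 CPM in VHL-KO cells, nearly all from EGFL7. CDH5 had 1, 0 and 0 counts in VC and none in VHL-KO cells.

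The remaining marker lists had few tested genes, and their calls stand beside 28.5% higher and 31.2% lower of all tested genes. Of 14 leukocyte markers 3 were tested, 1 (CD14) higher and 1 lower. Their sums were 2.55, 3.47 and 2.13 CPM in VC and 4.90, 6.07 and 4.22 CPM in VHL-KO cells, and CD3E had no count. Of 11 fibroblast and mural markers 7 were tested, 1 higher and 2 lower, with sums of 68.8, 71.2 and 59.5 CPM in VC against 99.0, 92.1 and 87.9 CPM, led by COL1A1 in VC and by ACTA2 in VHL-KO cells, and DCN had at most 2 counts in a sample. Hepatocyte markers, led by SERPINA1, summed to 53.4, 58.9 and 50.7 CPM in VC and 23.6, 21.5 and 23.3 CPM in VHL-KO cells with 1 of 2 tested genes lower. Of the squamous markers SFN alone was tested and was lower, and TP63 and KRT5 had no count. Among the markers of other cell types that rose were GAP43 from 0.883 to 3.06 CPM, CD14 from 1.56 to 4.31 CPM, EGFL7 from 23.2 to 48.5 CPM and ACTA2 from 20.5 to 61.4 CPM, while COL1A1 fell from 33.7 to 25.2 CPM and PDGFRB from 8.90 to 2.32 CPM.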

How the data were processed

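Total RNA of 3 VC and 3 VHL-KO samples was sequenced on an Illumina NovaSeq. The authors deposited raw counts of reads per gene. Per their methods and processing notes, reads were trimmed with Trim Galore and cutadapt, kept at 20 nt or longer, aligned with STAR to GRCh38.p13, kept when mapped to a single location and counted with HTSeq, with SAMtools also listed. Versions, annotation release and strandedness are not given in the sources used here, so antisense and overlapping genes cannot be told apart. Samples were grouped by their labels, with 0 columns of the count table unmapped.

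The 17401 genes that reached 10 reads in some sample were tested by edgeR 4.0.16 in R 4.3.3 (TMM factors, quasi-likelihood F test, Benjamini-Hochberg adjustment over all of them, threshold 0.05). DESeq2 1.42.0 was an alternative. The script was tested on simulated data. Depth ranged from 22628246 to 34881739 counts. Counting intervals are 95% exact intervals, Poisson for a count and Clopper-Pearson for a ratio of summed counts. Positions and exons came from GENCODE release 44 on GRCh38, matched by Ensembl ID, and promoters from RefSeq on GRCh38.p14. Tables and plots were made with Python 3.11.15, pandas 2.3.3, scipy 1.17.1 and matplotlib 3.10.9.

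The members and lists were chosen with earlier results of these data known. Lists covered HIF targets, DNA methylation and silencing machinery, cancer-testis and germline, imprinted and Y-linked genes, and markers of 7 cell types. Named genes were the members, 5 genes outside each limit, VHL, CA9, in each pathway list the 3 largest changes past the threshold with a mean of at least 10 counts, markers with over 100 counts in all, and the 5 neighbours with the largest change. Past the VC limit, 13 genes had at most 6 counts in each VC sample, and the 5 with the highest VHL-KO minimum were named. Below the VHL-KO minimum, the 5 nearest to it were named. Relatives, the genes overlapping or facing a member, the other tested neighbours of HCG4 and marker genes at or near 0 were added after their values were seen. Alternatives were other scalings, filters and limits, each replicate left out, a replicate block, and neighbour distances of 50 and 500 kb.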

Additional observations from a re-analysis of the deposited data

How the results depend on the processing

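The number of members depended most on the limits, with 4, 4, 21 and 56 genes at VC limits of 0, 1, 5 and 10 counts and 35, 3 and 1 at VHL-KO minimums of 10, 50 and 100. It was 16 with limits on CPM of the median library, 15 with no symbols left out, and between 15 and 22 with a replicate left out, highest without VC replicate 3, where fewer samples have to pass. Within 50 kb of a member 12 neighbours were called higher and 7 lower, and within 500 kb 68 and 32, as fewer or more genes are taken. Without the neighbours of HCG4, an alternative chosen after seeing the data, 16 were called higher and 12 lower within 100 kb. HIF targets called lower numbered 3 with upper quartile factors and between 3 and 5 with a replicate left out, while those called higher numbered 44 or 45 throughout. Genes of the silencing machinery called higher numbered 2 with library size alone, and 6 either without VC replicate 2 or when upper quartile factors were used. With at least 10 reads in every sample 16 neighbours were called higher and 10 lower, and with library size alone 19 and 17. The cause of these shifts between scalings was not tested. Genes called higher ranged from 3764 with library size alone to 5712 with upper quartile factors, and genes called lower from 4668 to 6737. The median level of members in VHL-KO cells stayed between 1.64 and 1.89 CPM and the median ratio between VHL-KO samples between 1.49 and 1.54. The replicate numbers do not pair the samples, with correlations of deviations of 0.151, -0.090 and 0.055 for equal numbers, and not every sample correlated best with its own number. With the replicate block 4847 genes were called higher and 5437 lower, against 4958 and 5436 without it. Of 52 named genes outside the set, without PRKY and 20 further markers, 44 kept their side of the threshold in every alternative that tested them. No call changed sign. Of the 52, 13 were not tested with at least 10 reads in every sample, so their calls depend on the filter. Of the 20 markers, run after seeing the data, 13 kept their side, and KRT19 and ANPEP were among those that did not. Counts of relatives under the alternatives were computed after seeing the data. Depth limits the VC side, where 3 reads equal 0.0790 to 0.101 CPM and folds rest on at most 8 reads.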
